A study of Mus musculus with 8 samples.

Results

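Apolipoproteins are the protein coats of the lipoprotein particles that carry lipid in plasma, and the liver makes most of them. The liver builds very low density lipoprotein (VLDL) around apolipoprotein B, encoded by Apob, which is loaded with triglyceride in the endoplasmic reticulum by the microsomal triglyceride transfer protein, encoded by Mttp. The smaller exchangeable apolipoproteins join the particle or form high density lipoprotein (HDL), and they set how fast the particle's triglyceride is hydrolysed and its remnant is cleared. The 10 genes described here, Apoa1, Apoa2, Apoa4, Apoa5, Apob, Apoc1, Apoc3, Apoe, Apom and Mttp, were chosen by name as liver apolipoproteins and VLDL assembly genes. Their measured difference was not a criterion, but earlier results of these data were known when they were chosen. All 10 were among the 11784 genes of the deposited table.

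Poly(A) RNA was sequenced from the liver of 8 male C57BL/6J mice that were switched at 9 weeks of age to an amino acid defined diet, kept on it for 4 months and killed after a fast of roughly 16 hours. The Control diet (TD.140711) was given to 4 mice and the Low AA diet (TD.140712), which is poorer in amino acids and richer in carbohydrate at nearly equal fat, was given to the other 4. The 2 changes in diet therefore cannot be told apart. Mice were group housed, and cage mates were not identified in the sources used here. The comparison of the diets asks how the liver transcriptome responds to reduced dietary protein, here for the genes of lipoprotein production. Values are read counts that were scaled between mice and rounded before deposit, called scaled read counts below, and they summed to between 28361406 and 29485422 per Control mouse and between 27876664 and 30799385 per Low AA mouse. Differences between diets were fitted over all 11784 genes by limma after a log2(value + 1) transformation, and a gene was called at a Benjamini-Hochberg adjusted p under 0.05. Of all genes, 47 were called (0.399%), and 1395 had an unadjusted p under 0.05 (11.8%). Control mouse F2212 stood apart from the rest, with 36587 scaled read counts of the pancreatic gene Cela1 against 130 to 288 in the other 7 mice, and with 57733 of the acute-phase gene Saa1 against 68 to 2818. Values without this mouse are therefore given beside the results of those chosen genes that it moves most. For most genes of the wider lists they are not given. In bulk liver, fewer cells of a type and less RNA per cell cannot be told apart.

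In the liver none of the 10 genes differed between the diets at the threshold of limma, where 0.399% of all genes did, and 0 of 10 had an unadjusted p under 0.05. Under 7 of 9 other settings of the analysis Apoe had an unadjusted p under 0.05. Apoe also did with Control mouse F2110 left out, and both Apoe and Mttp did with Low AA mouse H1315 left out. No member did with any other mouse left out, and neither gene was called in any of these. The limma adjusted p ran from 0.424 for Apoe to 0.927 for Apoa5 and Apob. In the fold changes 5 genes were above 0 and 5 below it, and their median log2 fold change of -0.0048 lay beside 0.0023 over all genes. Because the values were scaled between mice, a median near 0 over all genes follows from the scaling. The median size of the log2 fold change, whatever its sign, was 0.098 in the 10 genes and 0.14 over all genes. In 0 of the 10 genes did the values of the 4 Low AA mice lie wholly apart from those of the 4 Control mice, where 6.81% of all genes did. For 7 of the 10 genes the 95% confidence interval of the log2 fold change, taken gene by gene from limma, lay within 0.5 either way, and the widest, that of Apoa4, ran from -0.94 to 0.54. A p that misses the threshold does not show that the diets gave equal levels, and these intervals give the size of change that the 8 mice leave possible.

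**Figure D1:**
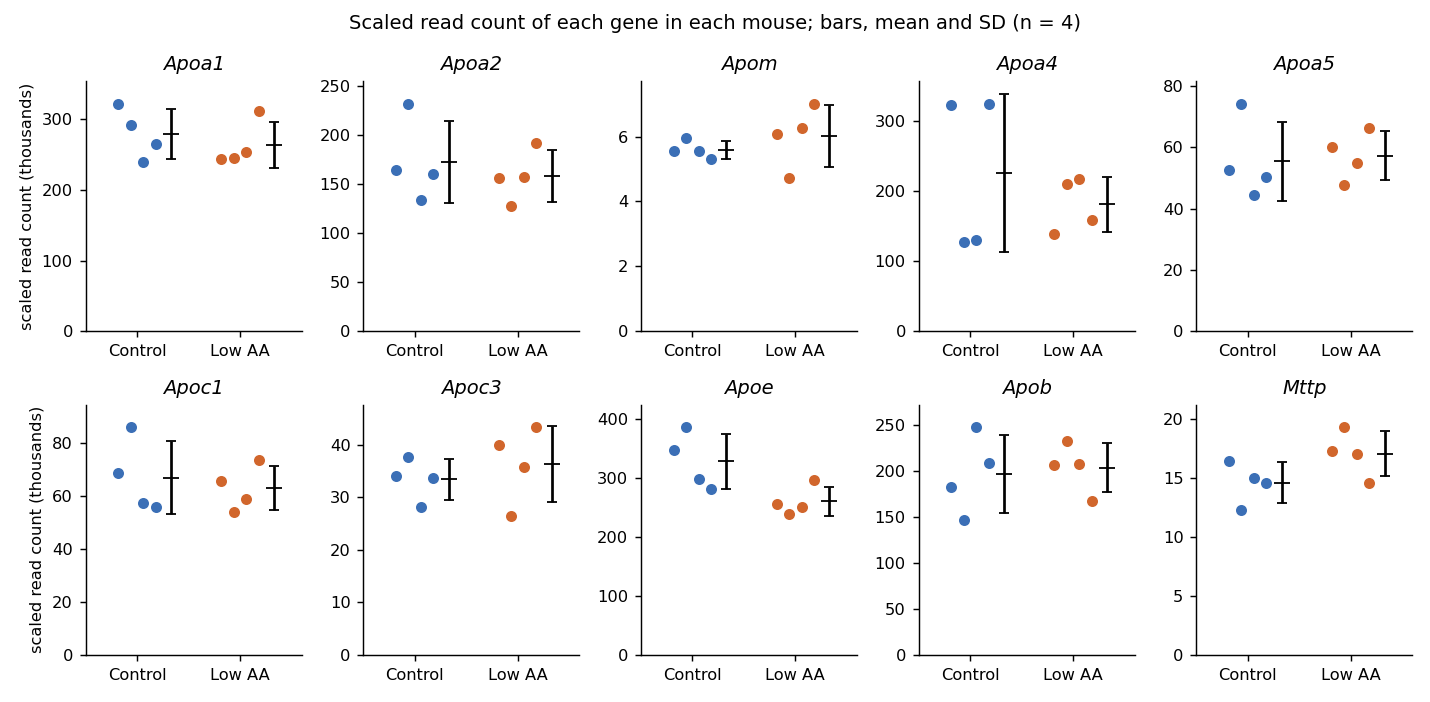
Scaled read count, in units of 1000, of the 10 genes in each mouse on the Control diet (blue) and the Low AA diet (orange), on axes that start at 0, with the mean and SD of 4 mice as black bars. The diets overlap in all 10 panels, and the 4 Control mice of Apoa4 fall into a pair at 127579 and 129646 and a pair at 321925 and 324255.

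These genes are among the most abundant transcripts of the liver. Together they held 4.74% ± 0.47 (SD, n = 4) of the listed signal on the Control diet and 4.295% ± 0.071 (SD, n = 4) on the Low AA diet. The single Control mice were at 5.15%, 4.82%, 4.07% and 4.94%, and the Low AA mice lay between 4.19% and 4.34%, inside the Control range. Levels of different genes were compared only as scaled read counts per kilobase of the longest annotated transcript. Per kilobase, Apoa2, a structural protein of HDL, was the highest of the 10, at 332822 ± 80939 (SD, n = 4) on the Control diet and 305350 ± 51008 (SD, n = 4) on the Low AA diet, rank 4 of 11665 genes with a known length. It was followed by Apoa1 (rank 5), the main protein of HDL, and by Apoe (rank 7). Apoc1 and Apoa4 came next, at ranks 18 and 20, and did not differ beyond their spread, since Apoc1 was the higher in 4 of 8 mice. Apoc3, Apoa5 and Apob were at ranks 45, 89 and 122. Apom and Mttp, a lipid transfer protein of the endoplasmic reticulum rather than a secreted protein, were the lowest, at ranks 360 and 479. Of the 9 neighbouring pairs in this order, Apoe and Apoc1, Apoa4 and Apoc3, Apoc3 and Apoa5, and Apob and Apom had ranges over the 8 mice that did not touch. Apoa2 and Apoa1, Apoa1 and Apoe, Apoa5 and Apob, and Apom and Mttp had ranges that touched, although the first gene was the higher within 8, 8, 7 and 7 of the 8 mice.

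Apob and Mttp carry out the core of VLDL assembly. Apob lies on chromosome 12 from 7977648 to 8016835 on the plus strand of GRCm38, with a longest transcript of 13934 bases in 29 exons, and Mttp lies on chromosome 3 from 138089854 to 138144968 on the minus strand, with 3963 bases in 18 exons. Apob had 183193, 146831, 247722 and 209469 scaled read counts in Control mice F129, F2212, F7111 and F2110, and 207101, 232898, 208471 and 167774 in Low AA mice H1126, H828, H817 and H1315. The lowest and the highest of the 8 values were both in Control mice. The means were 196804 ± 42566 (SD, n = 4) on the Control diet and 204061 ± 26938 (SD, n = 4) on the Low AA diet, a log2 fold change of 0.07 (SE, the standard error, 0.18, adjusted p = 0.927 by limma). Without Control mouse F2212, its lowest, the log2 fold change of Apob was -0.06. Mttp had 16471, 12284, 15026 and 14594 scaled read counts in the Control mice and 17267, 19278, 17055 and 14607 in the Low AA mice, in the same order of mice. The Low AA mice were all above the Control mean, and 3 of them were above every Control mouse, while H1315 lay among the Control values. The log2 fold change of Mttp was 0.23 (SE 0.12, 95% confidence interval from -0.05 to 0.50, adjusted p = 0.526 by limma), and it was 0.15 without Control mouse F2212, which had the lowest value. An increase of Mttp transcript above 1.41-fold lies outside this interval.

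Apoe, the ligand through which remnants of triglyceride-rich particles are taken up by the liver, had the smallest p of the 10 genes. It lies on chromosome 7 from 19696109 to 19699188, minus strand, and had 347286, 386372, 299454 and 282303 scaled read counts in Control mice F129, F2212, F7111 and F2110. In Low AA mice H1126, H828, H817 and H1315 it had 256544, 239349, 251107 and 297016. Each Low AA mouse was below the Control mean, and the diets overlapped only where Low AA mouse H1315 lay above Control mouse F2110. The means were 328854 ± 47186 (SD, n = 4) and 261004 ± 25058 (SD, n = 4), a ratio of 0.794. The log2 fold change was -0.33 (SE 0.15, 95% confidence interval from -0.66 to 0.0009, adjusted p = 0.424 in limma). Leaving out 1 mouse at a time kept it between -0.40 and -0.25, and in no case was it called. The log2 fold change was -0.25 without Control mouse F2212, which had the highest value (unadjusted p = 0.143, adjusted p = 0.572 by limma). It was -0.40 without Control mouse F2110, which had the lowest Control value. Besides hepatocytes, Kupffer cells, the macrophages of the liver, also make apolipoprotein E. All 11 of 11 Kupffer and macrophage markers were in the table, and none was called. Of these markers 1 (9.09%) had an unadjusted p under 0.05, beside 11.8% of all genes. All 11 had log2 fold changes above 0, from 0.08 to 0.61. Their summed scaled read counts ran between 9960 and 15397 on Control and between 10954 and 15113 on Low AA. No marker was at 0. The part of these cells in the Apoe values was not tested.

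Apoc1, a small inhibitor of lipoprotein uptake and lipolysis, is the neighbour of Apoe, 3448 bases away. It had 68370, 85663, 57267 and 55778 scaled read counts in the Control mice and 65401, 54001, 58852 and 73274 in the Low AA mice, in the order given for Apoe. The diets overlapped, with the highest value in Control mouse F2212 and the lowest in Low AA mouse H828. The log2 fold change was -0.07 (SE 0.16, adjusted p = 0.908 by limma), and it was 0.05 without Control mouse F2212. Because both genes were measured in the same library, their ratio within a mouse does not depend on how the columns were scaled. The log2 ratio of Apoe to Apoc1 was 2.34, 2.17, 2.39 and 2.34 in the Control mice and 1.97, 2.15, 2.09 and 2.02 in the Low AA mice. The ratio was lower in all 4 Low AA mice than in any Control mouse, with Control mouse F2212 and Low AA mouse H828 closest to each other. The difference of -0.25 had an exact permutation p of 0.0286 (two-sided, the smallest that 4 against 4 mice allow) and an adjusted p of 0.2 over the 7 ratios examined, so it did not pass the correction. With the trend on transcript length removed, as described further on, the ratios overlapped, since Low AA mouse H828 (2.19) lay above Control mouse F7111 (2.14). The difference was then -0.17 (two-sided exact permutation p = 0.0571, adjusted p = 0.4). The other genes of this cluster, Apoc4 and Apoc2, the activator of lipoprotein lipase, are named after their values were seen. They had log2 fold changes of -0.08 and -0.15 (adjusted p = 0.895 and 0.78 by limma).

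**Figure D2:**
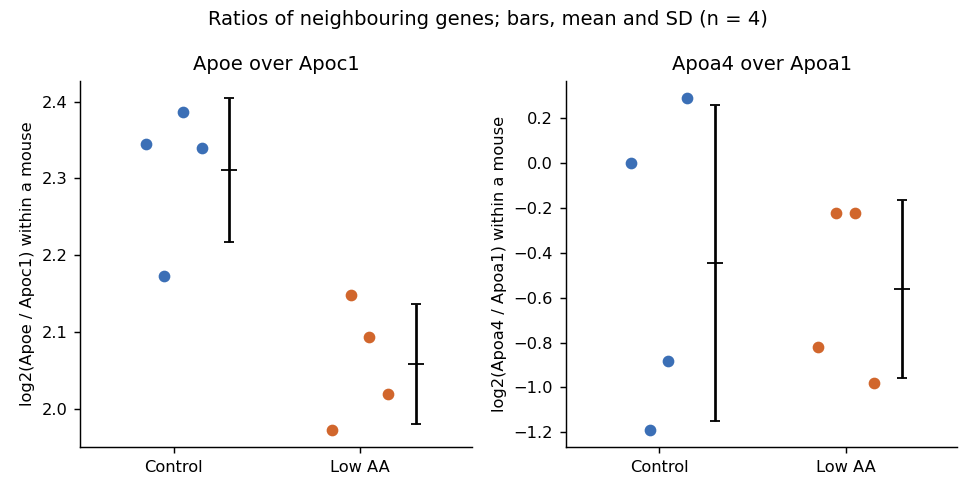
Log2 ratio within each mouse of Apoe to Apoc1 (left) and of Apoa4 to Apoa1 (right) on the Control diet (blue) and the Low AA diet (orange), with the mean and SD of 4 mice as black bars. The Apoe ratios of the Low AA mice, 1.97 to 2.15, lie below those of the Control mice, 2.17 to 2.39, and overlap once the trend on transcript length is removed, while the Apoa4 ratios overlap as plotted.

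Apoa1, Apoc3, Apoa4 and Apoa5 share a cluster of 43340 bases on chromosome 9. Apoa4, made in liver and gut, is carried on triglyceride-rich particles and HDL, and it was the most variable of the 10 genes. It lies from 46240696 to 46243459 and had 321925, 127579, 129646 and 324255 scaled read counts in Control mice F129, F2212, F7111 and F2110, and 138281, 209376, 217154 and 158035 in Low AA mice H1126, H828, H817 and H1315. The Control mice fell into a low pair and a high pair, and all 4 Low AA mice lay between the pairs. The highest Control value was 2.54 times the lowest. The SD of its log2 values was 0.77 among the Control mice and 0.32 among the Low AA mice, against 0.18 and 0.17 for Apoa1. Among the 200 genes with the highest mean value, the SD within diets of Apoa4 was above that of 96.0% and that of Apoa1 above 40.0%. The log2 fold change of Apoa4 was -0.20 (SE 0.33, adjusted p = 0.876 by limma). It was 0.02 without either Control mouse of the high pair and -0.42 without Control mouse F2212 of the low pair, and none of these was called. Of 9 markers of small intestine epithelium, a tissue that makes much Apoa4, 3 were in the table, Fabp2, Lgals4 and Apobec1, and the defining Vil1, Cdx1, Cdx2 and Sis were not among the listed genes. Fabp2 had 7160 and 5755 scaled read counts in the high pair F129 and F2110 and 7117 and 4602 in the low pair F2212 and F7111. Between the diets Fabp2 had a log2 fold change of -0.21, Apobec1 one of 0.29 and Lgals4 one of 0.57 (adjusted p = 0.633, 0.551 and 0.146 by limma). Lgals4 had 856 to 1338 scaled read counts on the Control diet and 1379 to 1773 on Low AA, without overlap. Within the Control mice it had 1338 and 856 in the high pair and 1154 and 1002 in the low pair. The part of these markers in the Apoa4 values was not tested.

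The neighbours of Apoa4 showed no comparable split among the Control mice. Apoa1 had 321839, 291365, 238796 and 264847 scaled read counts in the Control mice and 244211, 244590, 253402 and 312250 in the Low AA mice, a log2 fold change of -0.08 (SE 0.15, adjusted p = 0.888 by limma). Its highest Low AA value, in H1315, was below its highest Control value, in F129. Apoc3, an inhibitor of lipoprotein lipase and of remnant uptake, lies 5059 bases from Apoa4 and had 34092, 37746, 28195 and 33656 in the Control mice and 39954, 26394, 35669 and 43283 in the Low AA mice (log2 fold change 0.10, SE 0.16, adjusted p = 0.864 by limma). Its Low AA values reached both below and above all the Control values, and the log2 fold change was 0.16 without Control mouse F2212. Apoa5, an activator of triglyceride hydrolysis that is made in the liver, had 52530, 74198, 44485 and 50314 in the Control mice and 60181, 47601, 54841 and 66405 in the Low AA mice (log2 fold change 0.06, SE 0.17, adjusted p = 0.927 by limma). Without Control mouse F2212, its highest, the log2 fold change was 0.21 (adjusted p = 0.591 by limma). Apoc3 restrains and Apoa5 promotes the clearance of triglyceride, and their log2 ratio was -0.04 apart between diets (two-sided exact permutation p = 0.657, adjusted p = 0.743). None of the 6 ratios among the 4 genes of the cluster passed, with exact permutation p-values, two-sided, from 0.257 for Apoc3 to Apoa1 to 0.743 for Apoa4 to Apoa1. The 6 genes around the cluster that were listed, which do not code for apolipoproteins, had log2 fold changes from -0.62 to 0.35. None of them was called by limma, and 2 (33.3%) had an unadjusted p under 0.05, beside 11.8% of all genes.

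The sequences before Apoa1 and Apoa4 are shown because, of these abundant neighbours, Apoa4 varied widely between mice and Apoa1 did not. Each is the plus strand of GRCm38 from RefSeq, cut off at the earlier of the annotated starts, 5′ to 3′, and covers chr9:46228380-46228579 for Apoa1 and chr9:46240594-46240695 for Apoa4. Capitals mark matches to CAAAGTNCA, a form of the site bound by the hepatocyte nuclear receptor HNF4A, searched on both strands.
Apoa1: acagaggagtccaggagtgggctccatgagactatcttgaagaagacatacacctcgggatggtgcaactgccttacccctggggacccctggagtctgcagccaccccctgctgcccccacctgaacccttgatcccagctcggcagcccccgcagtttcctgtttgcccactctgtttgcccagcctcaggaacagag
Apoa4: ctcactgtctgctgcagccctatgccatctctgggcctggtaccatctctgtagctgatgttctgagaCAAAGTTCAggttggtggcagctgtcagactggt
In windows of 250 bases before the RefSeq start, this motif was found at Apoa4 and at none of the other members among the 8 that matched the promoter table, and in 1.19% of all 32851 windows. Other forms of the HNF4A site were not searched, so the absence of a site at Apoa1 or elsewhere is not shown. The match is a description of the letters only. Hnf4a itself had a log2 fold change of 0.08 and Creb3l3, a liver transcription factor that drives Apoa4 in fasting, one of 0.03 (adjusted p = 0.899 and 0.936 by limma). Both are named after their values were seen. Creb3l3 had 15192 and 15007 scaled read counts in the Control mice with high Apoa4 and 17636 and 13279 in those with low Apoa4. The higher and the lower of the low-Apoa4 mice lay on either side of the high-Apoa4 mice. The part of Hnf4a and Creb3l3 in the Apoa4 values was not tested.

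Apoa2 and Apom complete the HDL genes. Apoa2, on chromosome 1 from 171225054 to 171226379, had 163972, 231989, 133722 and 159925 scaled read counts in Control mice F129, F2212, F7111 and F2110, and 156351, 127465, 156840 and 192030 in Low AA mice H1126, H828, H817 and H1315. The highest value was that of F2212, and the log2 fold change of -0.11 (SE 0.19, adjusted p = 0.88 by limma) became 0.04 without it. Apom, which carries sphingosine 1-phosphate on HDL, lies on chromosome 17 from 35128997 to 35132050. It had 5546, 5961, 5541 and 5318 in the Control mice and 6087, 4713, 6261 and 7012 in the Low AA mice. The Control mice were close together, with a log2 SD of 0.07 against 0.24 in the Low AA mice, of which 3 were above all Control mice and H828 was below them. The log2 fold change was 0.09 (SE 0.12, adjusted p = 0.835 by limma).

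**Figure D3:**
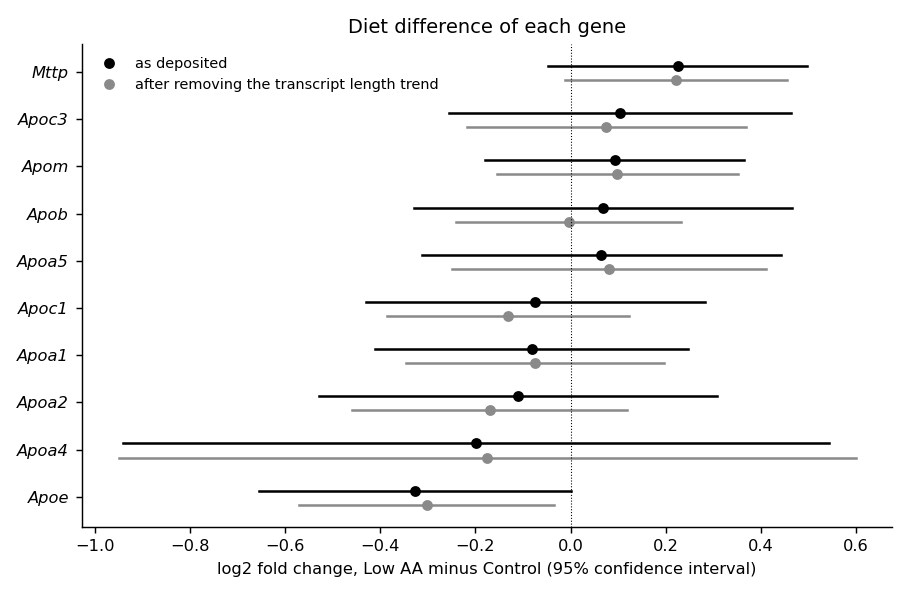
Log2 fold change of each of the 10 genes, Low AA minus Control, with its 95% confidence interval from limma, for the values as deposited (black) and after the trend on transcript length was removed within each mouse (grey). The 10 black intervals all include 0, and the grey interval of Apoe, from -0.57 to -0.03, does not.

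Apob varied between mice along with all genes of like transcript length. Apoa2, Apoc1, Apoc3 and Apom followed their classes less closely. Apoc1 deviated by 0.42 in F2212 and -0.25 in H828, beside 0.25 and -0.05 for the class up to 1 kb. Apoc3 deviated by 0.21 in H1126 and -0.38 in H828, beside -0.05 in both mice for the class up to 1 kb. Apom deviated by -0.29 in H828, beside -0.07 for the class of 1 to 2 kb. Apoa4 did not follow its class: it deviated by 0.76, -0.58, -0.55 and 0.77 in Control mice F129, F2212, F7111 and F2110, beside 0.08, 0.18, -0.14 and -0.05 for the class of 1 to 2 kb. Control mouse F2212 had the highest Apoa2, Apoc1 and Apoa5 of the 8 mice and the lowest Apob and Mttp, and Control mouse F7111 had the highest Apob and the lowest Apoa1 and Apoa5. Apoa5 went well beyond the class of 2 to 3 kb, at 0.42 beside 0.07 in F2212 and -0.32 beside -0.04 in F7111. Mttp deviated by -0.35 in F2212, beside -0.06 for the class of 3 to 5 kb. Over the 618 genes with a longest transcript of up to 1 kb, the median log2 deviation from each gene's mean was 0.25 in F2212 and -0.31 in F7111. Over the 622 genes above 8 kb it was -0.38 and 0.28, so short and long transcripts moved in opposite directions in these mice. The 6 classes of length changed step by step between these ends in both. Apob, with the longest transcript of the 10 genes, deviated by -0.43 in F2212, 0.32 in F7111, -0.24 in H1315 and 0.23 in H828, beside -0.38, 0.28, -0.19 and 0.17 for the class above 8 kb. Apoa2, with 518 bases, deviated by 0.51, -0.28, 0.24 and -0.35 in the same mice, beside 0.25, -0.31, 0.16 and -0.05 for the class up to 1 kb. In H828 the members of up to 1 kb, Apoa2, Apoc1 and Apoc3, were all lower than their class. The slope of the deviation on length ran from -0.65 to 0.48 log2 units per 10-fold of length in the Control mice and from -0.30 to 0.27 on Low AA, so the ranges of the diets overlapped.

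**Figure D4:**
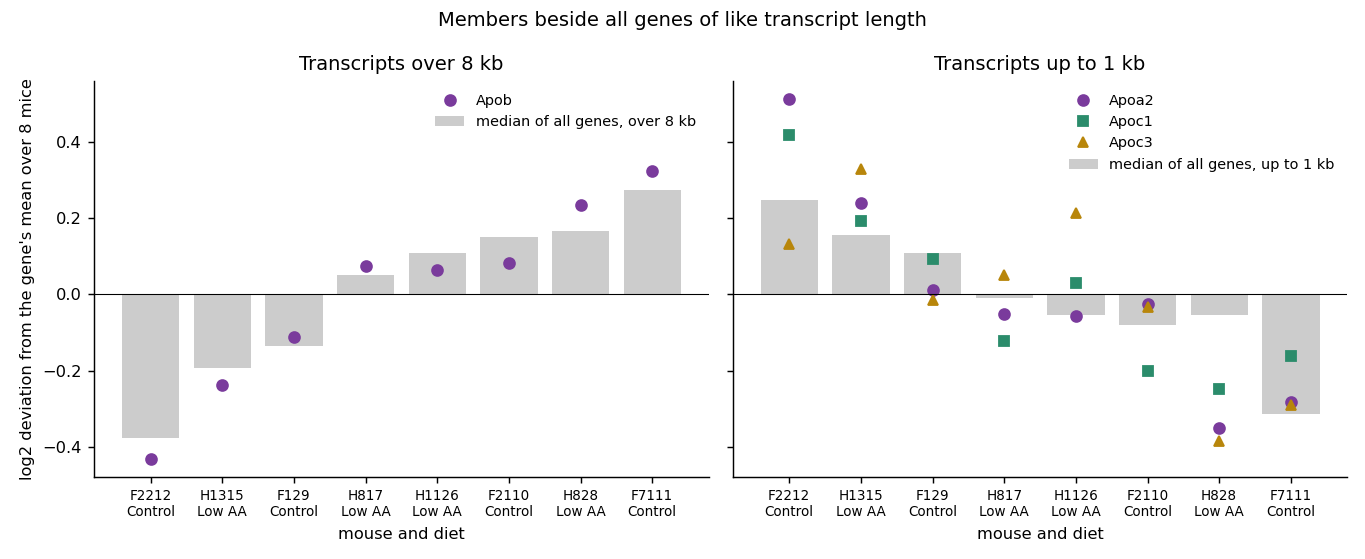
Log2 deviation from the gene's mean over 8 mice, for Apob beside the median of all genes with transcripts over 8 kb (left) and for Apoa2, Apoc1 and Apoc3 beside that of genes with transcripts up to 1 kb (right), mice ordered by their slope on length. The grey bars run from -0.38 to 0.28 on the left and from 0.25 to -0.31 on the right, and Apob follows them in every mouse.

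With the trend on transcript length removed within each mouse, a step chosen after the values were seen, the spread of most members was smaller. The SD of the log2 values of Apob went from 0.32 to 0.065 on the Control diet and from 0.20 to 0.04 on Low AA, and its log2 fold change from 0.07 to -0.004, with a 95% confidence interval from -0.24 to 0.23. The SD was smaller in 8 of 10 genes among the Control mice and in 9 of 10 among the Low AA mice. Apoa4 was an exception on both diets, with SDs of 0.78 and 0.35 after the step, and Apom was the other exception among the Control mice (0.07 before and 0.17 after). Apoe did not overlap between the diets after this step, with deviations from its mean of 0.01 to 0.22 in the Control mice and of -0.21 to -0.08 on Low AA, where 9.42% of all genes did not. Its log2 fold change was then -0.30 (95% confidence interval from -0.57 to -0.03, adjusted p = 0.267 in limma), so it was not called, and it was the 1 member with an unadjusted p under 0.05, where 15.5% of all genes had one. In the table as a whole 131 of 11665 genes were then called (1.12%), and 0 of the 10. RNA quality values for single mice were not analysed here, and their part in the trend on length was not tested.

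Of a wider set of 124 genes of the lipoprotein pathway, written in 8 lists by role, 118 were in the table. Sulf2 alone was called, as lower on the Low AA diet, where 0.297% of all genes were called lower. An unadjusted p under 0.05 was found in 20 (16.9%), where 11.8% of all genes had one. Of the 118 genes 12 (10.2%) did not overlap between diets, 5 with higher Low AA values and 7 with lower ones, where 3.26% and 3.55% of all genes did so. The median log2 fold change of the 118 genes was 0.0084. Sulf2 encodes an extracellular sulfatase that removes 6-O-sulfate groups from heparan sulfate, the matrix sugar that helps to hold remnant particles at the liver surface. It had 660, 707, 890 and 1024 scaled read counts in Control mice F129, F2212, F7111 and F2110, and 431, 297, 430 and 299 in Low AA mice H1126, H828, H817 and H1315. Every Low AA mouse was below every Control mouse, and the log2 fold change was -1.17 (SE 0.18, adjusted p = 0.0308 by limma). The call depended on single mice, since of the 8 analyses with 1 mouse removed it was made in the 2 that lacked Control mouse F129 or F2212, and it was not made without the mean-variance trend. Vldlr, the VLDL receptor, which is sparse in liver, had 44 to 79 scaled read counts on the Control diet and 102 to 180 on Low AA (log2 fold change 1.31, SE 0.26, adjusted p = 0.0711 by limma), and it was called when Control mouse F2212 was left out. Of the 14 genes of receptors and heparan sulfate in the table, 6 had log2 fold changes above 0 and 8 below.

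Of the 19 genes for lipid supply and lumenal lipidation, none was called, and 13 had a log2 fold change above 0. An unadjusted p under 0.05 was found in 5 (26.3%), beside 11.8% of all genes. In 3 (15.8%) the diets did not overlap, beside 6.81% of all genes. Ces1d, a lipase of the endoplasmic reticulum that mobilises stored triglyceride for VLDL, had 9646 to 14276 scaled read counts on the Control diet and 16916 to 28130 on Low AA (log2 fold change 0.84, SE 0.17, adjusted p = 0.0754 by limma). Reads shared with its related neighbours of the Ces1 family could affect this value, which was not tested. Plin5, a coat protein of lipid droplets, had 3062 to 4724 and 5481 to 6400 (log2 fold change 0.64, adjusted p = 0.081 by limma). Fitm2, which helps droplets to form, had 1054 to 1238 and 1474 to 1664 (log2 fold change 0.46, adjusted p = 0.0847 by limma). In these 3 genes every Low AA mouse was above every Control mouse, and Ces1d and Plin5 were called after the trend on length was removed, with adjusted p of 0.0386 and 0.0363 in limma.

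**Figure D5:**
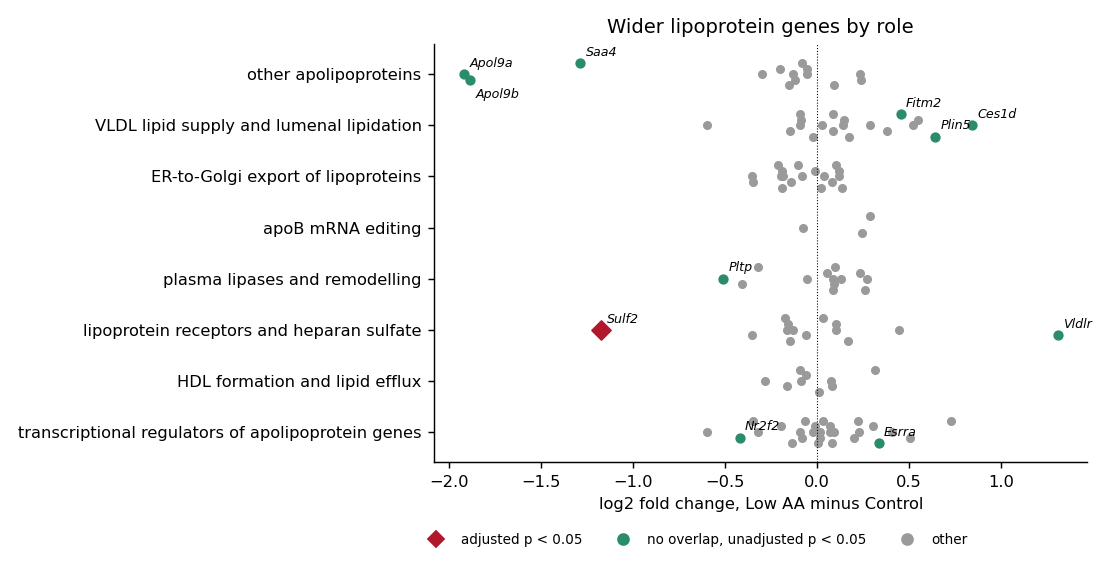
Log2 fold change, Low AA minus Control, of genes of the lipoprotein pathway in 8 lists by role, with 1 of the 118 listed genes not drawn. The red diamond is Sulf2, the gene that passed an adjusted p under 0.05, at -1.17, green points are genes without overlap between diets and with an unadjusted p under 0.05, and grey points are the rest.

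Of 14 other genes named as apolipoproteins or HDL proteins, none was called, and 11 had a log2 fold change below 0. An unadjusted p under 0.05 was found in 4 (28.6%), beside 11.8% of all genes. In 3 (21.4%) the diets did not overlap, beside 6.81% of all genes. The 3 without overlap are not core lipoprotein proteins. Apol9a and Apol9b, near-identical genes of the apolipoprotein L family that respond to interferon, had log2 fold changes of -1.92 and -1.88 (adjusted p = 0.104 and 0.0793 by limma), and the split of reads between them is uncertain. Saa4, a serum amyloid A protein carried on HDL, had 1695 to 4254 scaled read counts on the Control diet and 901 to 1515 on Low AA (log2 fold change -1.29, adjusted p = 0.0915 by limma), and it was called when Control mouse F2110 was left out. Saa1, of the same family, had a log2 fold change of -3.49 (adjusted p = 0.261 by limma) and no overlap, with Control mouse F2212 far above the rest. Of 11 acute-phase genes 0 were called by limma, and 8 had a log2 fold change below 0. Among them 3 (27.3%) had an unadjusted p under 0.05, beside 11.8% of all genes. Of these, Saa1 and Orm1 were lower on Low AA and Apcs was higher. The log2 fold change was -2.06 for Orm1 and 1.03 for Apcs (adjusted p = 0.0908 and 0.192 by limma).

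Of 14 lipases, remodelling factors and their regulators, none was called. An unadjusted p under 0.05 was found in 3 (21.4%), beside 11.8% of all genes. Pltp, which moves phospholipid between particles, had 1051 to 1528 scaled read counts on the Control diet and 755 to 929 on Low AA (log2 fold change -0.51, SE 0.13, adjusted p = 0.146 by limma). Of 27 regulators of transcription, none was called and 4 (14.8%) had an unadjusted p under 0.05, beside 11.8% of all genes. In 2 (7.41%) the diets did not overlap, beside 6.81% of all genes. Nr2f2, which competes with HNF4A at apolipoprotein promoters, had a log2 fold change of -0.42 (adjusted p = 0.188 by limma) and Esrra one of 0.34 (adjusted p = 0.276 by limma), both without overlap. Of the remaining lists, none of the 18 genes of export from the endoplasmic reticulum, the 3 genes of apoB mRNA editing and the 9 genes of HDL formation and efflux was called or was without overlap, and 1, 0 and 0 of them had an unadjusted p under 0.05. The smallest p in these lists were those of Mia3, which loads large cargo for export (log2 fold change -0.35, adjusted p = 0.308 by limma), Apobec1, the editing deaminase (0.29, adjusted p = 0.551 by limma), and Gpld1, a phospholipase carried on HDL (-0.28, adjusted p = 0.493 by limma).

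The genes of the table most like a member in pattern were taken for the 3 members with the largest fold changes, by the Pearson correlation of log2 values over the 8 mice, given as a description. For Apoe they were Mrps30, Fahd2a and Nudt2 (0.99, 0.99 and 0.98), for Mttp Mtus1, Fermt2 and Ptpn2 (0.97, 0.96 and 0.96), and for Apoa4 Pgm1, Vps53 and Tbce (0.93, 0.93 and 0.92). No member of the 10 was among them, and all genes share the depth and the length trend of the 8 libraries. Hepatocyte markers were high in every mouse, with Alb between 1321262 and 1789498 scaled read counts, and none of the 6 was called or had an unadjusted p under 0.05 in limma.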

How the data were processed

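Liver RNA of 8 mice was analysed from 1 table. Its deposited values, made by the authors, are a signal per gene and mouse (scaled, rounded read counts), beside their own fold change and FDR, which were not used. The submitters' processing notes name bcl2fastq 1.8.2, STAR 2.5.0a, RSEM 1.2.6, edgeR 3.10.5 and mm10, and do not give the role of each. That the values are not raw counts was read from their nearly equal medians per mouse, 433.0 to 449.0, and from regular gaps and doublings among low whole numbers, so no count model was used and the exact depth is unknown. Positions and lengths are from GENCODE M21 on GRCm38, the same build as mm10, and 11665 genes had a length, some through synonyms in a RefSeq table.

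The R package limma 3.58.1 (R 4.3.3) fitted log2(value + 1) using a trended prior variance. The fit was tried on simulated data with independent noise for each gene and mouse. Those data held no trend on transcript length within a mouse, so calls under such a trend were not tested. The p-values over all genes are adjusted by Benjamini-Hochberg. Ratios within mice were compared by exact permutation. Low values are compressed by the pseudocount of 1. Genes of the wider lists were named where called, where without overlap at an unadjusted p under 0.05, or as the smallest p of a list, and 1 gene that meets this rule is counted but not reported here. The members and lists were chosen with earlier results of these data known. Alternatives were other pseudocounts (0.1 and 5), scalings, moderation settings, the 8000 most abundant genes, each mouse left out, and, chosen after the values were seen, removal within each mouse of a lowess trend on log10 transcript length.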

Additional observations from a re-analysis of the deposited data

Results flagged for a closer look

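Of 36 groups of 4 mice examined, for the 10 genes, their share of the signal and the 7 ratios, 3 had 1 mouse far from the other 3, where chance gives about 1 in 20 groups. Apoa1 in Low AA mouse H1315 had a log2 value of 18.25, where the other Low AA mice had 17.90 to 17.95 (gap over range 0.85). The share of the 10 genes in Low AA mouse H1126 was 4.19% against 4.32% to 4.34% (gap over range 0.879), where the other 3 mice were nearly equal. The log2 ratio of Apoa5 to Apoc3 in Low AA mouse H828 was 0.85 against 0.59 to 0.62 (gap over range 0.886).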

How the results depend on the processing

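No paired analysis was possible because no replicate number in the labels links a Control to a Low AA mouse. No member was called under any alternative. Members kept the sign of their log2 fold change in 89 of 90 results under other settings, the exception being Apob with length corrected (-0.0037). The moderation settings and the choice of the 8000 most abundant genes leave fold changes as they are. Other pseudocounts hardly move values this high. The sign could therefore turn only under the scalings and the length correction. With a mouse left out the sign was kept in 73 of 80 results. The 7 exceptions were, without Control mouse F2212, Apoa2 (0.043), Apoc1 (0.053) and Apob (-0.064), without F129 or F2110, Apoa4 (0.020 and 0.024), and without F7111 or Low AA mouse H1315, Apoa5 (-0.032 and -0.010). Of the ratios, Apoa4 to Apoa1 turned to 0.031, 0.13 and 0.023 without F129, F2110 and H1315, and Apoa5 to Apoc3 to 0.049 without F2212 and to 0.0058 with length corrected. Over the mice left out, log2 fold changes ran from -0.22 to 0.04 for Apoa2, -0.42 to 0.02 for Apoa4, -0.03 to 0.21 for Apoa5, -0.15 to 0.05 for Apoc1, -0.06 to 0.19 for Apob, 0.01 to 0.25 for Apoc3, 0.01 to 0.21 for Apom and -0.17 to -0.01 for Apoa1, and differences in ratio from -0.10 to 0.05 for Apoa5 to Apoc3 and -0.37 to 0.13 for Apoa4 to Apoa1. Members without overlap numbered 1 with equal totals, where it was Apoe, 1 with length corrected, also Apoe, and 0 to 2 with a mouse left out (Apoe without F2110, Apom without H828, Apoe and Mttp without H1315). The share of all genes was 9.42% with length corrected and is not given for the other settings. With fewer mice in a group, values lie apart by chance more often, so these counts are not a result about the members. Genes called in all numbered 19 among the 8000 most abundant, 30 with no trend, 131 with length corrected (53 higher and 78 lower) and 16 to 77 with a mouse left out (29 without F129, 77 without F2212, 21 without H1126, 19 without H828 and 16 without H817). Called genes of the wider lists numbered 0 with no trend, 4 with length corrected (Apol9b, Ces1d, Plin5 and Sulf2) and 0 to 3 with a mouse left out (Sulf2, Plin5 and Vldlr without F2212, and 0 without F7111 or any Low AA mouse). The causes were not tested. With 4 mice a diet, the confidence intervals given set the size of difference that could be seen, and the exact depth is unknown.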
